A study of Homo sapiens with 11 samples.

Results

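The DNA replication and mitosis genes are 39 genes taken by symbol, of 19645 protein-coding genes and 58288 genes of all types in the RNA-seq data. All 39 were found by name, and the rule uses no measured value. By textbook role, 16 were assigned to G1 or S phase, here the G1/S genes, and 23 to G2 or mitosis, here the G2/M genes. The assignment is coarse, since CCNA2, placed with G2/M, is a cyclin of both S and G2 phases. The study profiled HK2 cells, an immortalised line from the proximal tubule of an adult human kidney, under 1 condition. HK2 was made with papillomavirus oncogenes, so it is a dividing line and not a resting tubule. According to the labels, all cells grew in DMEM-F12 medium with 10% FBS, antibiotics and 0.05% DMSO, and no other condition was analysed here. RNA-seq had 2 libraries, and ChIP-seq had 2 replicates each of H3K4me3, H3K27ac and H3K27me3. Nothing in the labels says whether replicates came from separate cultures, so the spread between them may be technical.

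A dividing cell copies its genome in S phase and parts the copies in mitosis. Origins are loaded with the MCM helicase in G1, and the fork then needs a sliding clamp, nucleases and a supply of deoxynucleotides. Transcription of these replication genes is classically tied to E2F factors. Cyclin B with CDK1 drives entry into mitosis, kinesins and Aurora kinases build and correct the spindle, and the anaphase-promoting complex ends mitosis by proteolysis. Genes of this late group are classically tied to CCAAT boxes, bound by NF-Y, and to a promoter element called the cell cycle genes homology region (CHR). H3K4me3 marks promoters, H3K27ac marks active promoters and enhancers, and H3K27me3 marks Polycomb-repressed chromatin.

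The libraries held 5.67 and 5.52 Gb of aligned bases, estimated from the deposited coverage and FPKM. Peak lists held 28615 and 73505 H3K4me3 peaks, 57687 and 38554 H3K27ac peaks, and 45858 and 32639 H3K27me3 peaks on the main chromosomes, in replicates 1 and 2. Median peak widths were 1194 and 434 bp, 1357 and 657 bp, and 1181 and 535 bp in the same order, so peaks of replicate 2 were narrower for every mark. Of the peaks of replicate 2, 24.5% for H3K4me3, 97.4% for H3K27ac and 67% for H3K27me3 overlapped a peak of replicate 1. Of the peaks of replicate 1, 58.9%, 44.1% and 32.9% in the same order overlapped a peak of replicate 2. Of 6 kidney epithelial markers, 4 reached an FPKM of 1 in both libraries, with PAX8 at 100 and 104, while PAX2 (0.372 and 0.4) and CDH1 (0.21 and 0.283) did not. Of 9 proximal tubule markers, 2 reached an FPKM of 1 in both libraries, and LRP2 and HNF4A were listed at 0. Of 5 fibroblast markers, COL1A1 alone reached it, at 40.3 and 39.9, and PDGFRA, PDGFRB, COL1A2 and DCN stayed below an FPKM of 1. No podocyte marker reached it, and the summed FPKM of the leukocyte markers was 0.363 and 0.143 and that of the endothelial markers 0 and 0.0404.

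Expression is given as FPKM, the fragments of a transcript scaled by its length and by the depth of the library, summed over the transcripts of a gene. Levels can be set side by side between genes. They sum transcripts of all types, and the order of genes can differ when only transcripts typed as protein-coding are summed. The median FPKM of the 39 genes was 44.9 in library 1 and 44.1 in library 2, against 3.24 and 3.36 over all protein-coding genes. On the log2(FPKM + 1) scale the medians were 5.51 and 2.11, a difference of 3.40. All 39 genes reached an FPKM of 1 in both libraries, where 58.8% of protein-coding genes did. An FPKM of 10 was reached in both by 38 of the 39, where 30.2% of protein-coding genes did, and the exception was CENPE. The median member stood above 93.2% of protein-coding genes, and the members ranged from 52% for CENPE to 99.3% for PCNA.

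**Figure D1:**
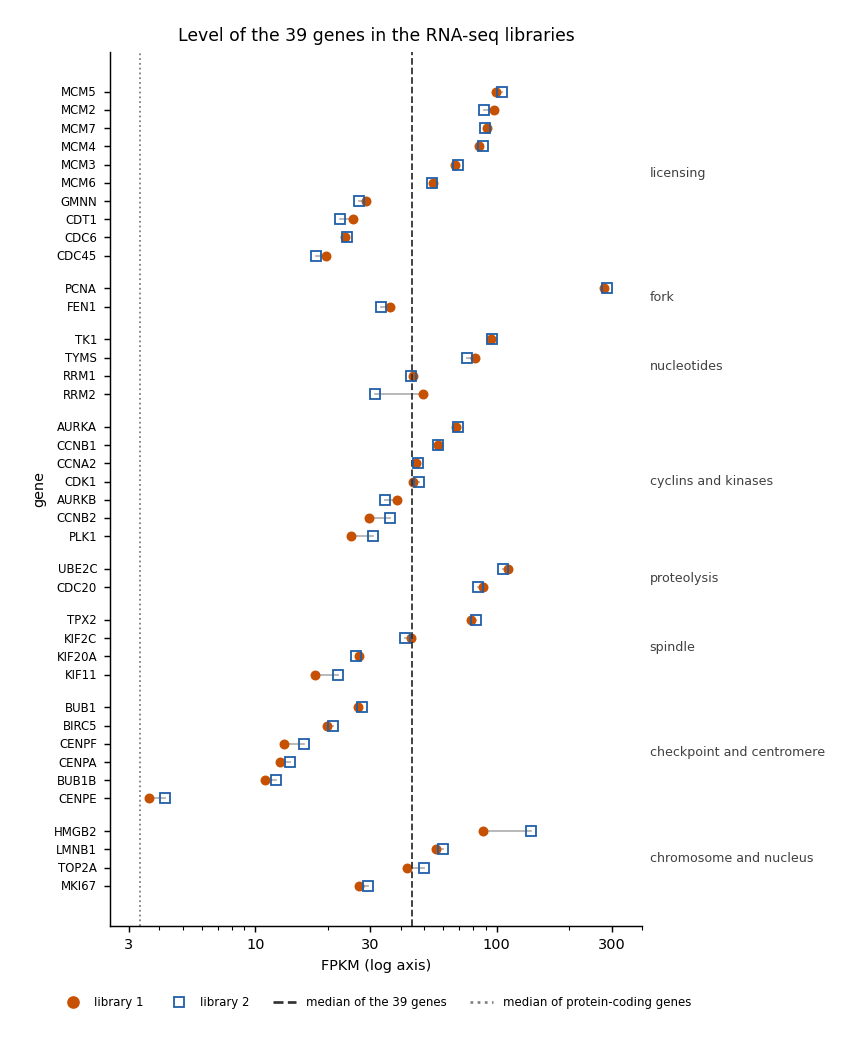
FPKM (log axis) of each of the 39 genes in RNA-seq library 1 (filled circles) and library 2 (open squares), grouped by role, with dashed and dotted lines at the median of the 39 genes and of all protein-coding genes. All genes lie to the right of the protein-coding median of 3.32, from CENPE to PCNA, and the checkpoint and centromere genes all lie left of the 39-gene median of 44.6.

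Among the licensing genes, the MCM2 to MCM7 subunits of the replicative helicase formed the upper block and the other licensing genes the lower one. MCM5 was the highest of the group, with an FPKM of 99.4 in library 1 and 105 in library 2 (102 ± 4.01, mean and SD, n = 2). MCM2 had 97 and 88.9, and MCM7 had 91.4 and 89.4. The ranges of MCM2 and MCM7 overlapped, and MCM5 lay above both. MCM4 had 84.7 and 87.6. MCM3 had 67.1 and 69.3, and MCM6 had 54.3 and 53.7. Each of these 6 subunits lay above the other 4 licensing genes in both libraries. GMNN, which encodes geminin, the inhibitor of CDT1, had 28.7 and 26.8. CDT1, which brings the helicase to origins, had 25.5 and 22.5. CDC6, an ATPase that loads the helicase with CDT1, had 23.6 and 24, inside the range of CDT1. The lowest was CDC45, part of the active helicase at the fork, with 19.7 and 17.9 (18.8 ± 1.29, SD, n = 2).

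PCNA, the sliding clamp that tethers polymerases to DNA, was the highest of all 39 genes, with an FPKM of 277 and 287 (282 ± 7.14, SD, n = 2). PCNA (ENSG00000132646) lies on chromosome 20 from 5095599 to 5107272 in GRCh37. FEN1, the nuclease that trims Okazaki fragment flaps, was the other fork gene, with 36.3 and 33.2. The clamp thus stood far above the nuclease in both libraries. Among the genes of deoxynucleotide supply, TK1, the thymidine kinase of the salvage route, had 94.4 and 95.9. TYMS, thymidylate synthase, had 81.4 and 75.3. RRM1, the large subunit of ribonucleotide reductase, had 45 and 44.1. RRM2, its small regulatory subunit, had 49.6 and 31.2, so RRM2 lay above RRM1 in library 1 and below it in library 2.

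Of the cyclins and kinases, AURKA, the centrosomal Aurora kinase, was highest, with an FPKM of 67.5 and 69.4 (68.4 ± 1.34, SD, n = 2). CCNB1, cyclin B1, had 57.1 and 56.9. CCNA2, the cyclin of S and G2 phases, had 46.2 and 47.2, and CDK1, the kinase that both cyclins activate, had 44.9 and 47.5. CCNA2 lay within the range of CDK1, so their order was not set. AURKB, the kinase of the chromosomal passenger complex, had 38.8 and 34.6. CCNB2, cyclin B2, had 29.7 and 36.2, which overlapped AURKB. PLK1, a kinase of mitotic entry and spindle assembly, was the lowest, with 25 and 30.7 (27.8 ± 4.07, SD, n = 2).

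Both genes of the proteolytic end of mitosis were high. UBE2C, the ubiquitin-conjugating enzyme of the anaphase-promoting complex, had an FPKM of 111 and 106. CDC20, an activator of that complex, had 87.5 and 83.7. Neither range overlapped the other. Among spindle genes, TPX2, which nucleates microtubules and activates AURKA, led with 77.9 and 82.3. KIF2C, a microtubule-depolymerising kinesin, had 44.1 and 41.7, and KIF20A, a kinesin of cytokinesis, had 26.8 and 26.1. KIF11, the kinesin that separates spindle poles, was the lowest of the 4, with 17.7 and 22.1.

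The checkpoint and centromere genes had the lowest median of the 8 role groups, an FPKM of 13.9, against 159 for the fork and 96.9 for proteolysis. BUB1, a kinase of the spindle checkpoint, was their highest member over all transcripts, with 26.6 and 27.7. Its transcripts typed as protein-coding held 7.14 and 8.4. By that sum it lay below BIRC5 (18.9 and 18.3), CENPF (12.1 and 14.5) and BUB1B (9.47 and 9.9), and above CENPA and CENPE. BIRC5, the survivin subunit of the passenger complex, had 19.9 and 20.9. CENPF, a large kinetochore-associated protein, had 13.1 and 15.9, and CENPA, the centromeric histone H3 variant, had 12.7 and 13.9. Their ranges overlapped. BUB1B, which encodes the checkpoint protein BUBR1, had 11 and 12.2. CENPE, the kinetochore kinesin, had 3.62 and 4.24 (3.93 ± 0.434, SD, n = 2) and was the lowest of all 39 genes. CENPE (ENSG00000138778) lies on chromosome 4 from 104026506 to 104119602 in GRCh37.

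The remaining 4 genes shape chromosomes or the nucleus. HMGB2, a DNA-bending chromatin protein, had an FPKM of 87.3 and 139 (113 ± 36.3, SD, n = 2), the widest SD of the 39. LMNB1, a nuclear lamin, had 56.2 and 59.8, of which transcripts typed as protein-coding held 2.23 and 2.59. TOP2A, the topoisomerase that untangles sister chromosomes, had 42.4 and 49.8. MKI67, the proliferation marker that coats mitotic chromosomes, had 27 and 29.3. Over the 39 genes, the SD between libraries ran from 0.296% to 32.2% of the mean, with a median of 4.11%, against 6.49% over protein-coding genes whose mean FPKM was 1 or more. Of 38 neighbouring pairs in the order of level, 23 overlapped in range and 15 did not. The rank of most genes is therefore known only to within a few places.

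The median FPKM was 61.1 for the G1/S genes (60.7 and 61.5 in the libraries) and 36.7 for the G2/M genes (38.8 and 36.2). On the log2(FPKM + 1) scale, the medians were 5.24 for G2/M and 5.95 for G1/S genes, a difference of -0.71. The ranges overlapped widely, from 18.8 to 282 for G1/S genes and from 3.93 to 113 for G2/M genes. Genes are not replicates, and no test was made of this difference. FPKM in a culture that divides out of step averages over cells in all phases, so fewer cells in a phase and less RNA per cell cannot be told apart.

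The libraries were then compared within each gene by the log2 ratio of FPKM + 1 in library 2 to FPKM + 1 in library 1. Of the 39 genes, 23 were higher in library 2 and 16 lower, with a median ratio of 0.039. Over the 11748 protein-coding genes whose mean FPKM was 1 or more the median was 0.006, and 51.8% were higher in library 2. Among G2/M genes, 17 of 23 were higher in library 2, with a median of 0.082. Among G1/S genes, 6 were higher and 10 lower, with a median of -0.030. All 6 checkpoint and centromere genes and all 4 chromosome and nucleus genes were higher in library 2.

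HMGB2, at 0.66, and RRM2, at -0.65, were the extremes, and both lay outside the 5th to 95th percentile of protein-coding genes, which ran from -0.35 to 0.38. HMGB2 (ENSG00000164104, chromosome 4 from 174252527 to 174255583 in GRCh37) had 843089 aligned bases in library 1 and 1265996 in library 2. RRM2 (ENSG00000171848, chromosome 2 from 10260825 to 10351851) had 908904 and 468121. The third largest, KIF11, had a ratio of 0.31, inside those percentiles. The ratio moved with the length of the transcript that led in library 1. Where the leading transcript was shorter than 2000 bases, the median ratio of protein-coding genes was -0.034 (3633 genes), at 2000 to 4000 bases it was 0.004 (4282 genes), and at 4000 bases or more it was 0.048 (3634 genes). All 7 members with a leading transcript of at least 4000 bases were higher in library 2, as were 63.1% of protein-coding genes of that length. Of these 7, CDC6 and MCM4 are G1/S genes and CENPE, CENPF, KIF11, MKI67 and TOP2A are G2/M genes. Below 4000 bases, 12 of 18 G2/M genes and 4 of 14 G1/S genes were higher in library 2. Of protein-coding genes, 41% were higher in library 2 below 2000 bases and 51.4% at 2000 to 4000 bases. The part of transcript length in the difference between the phases was not tested.

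**Figure D2:**
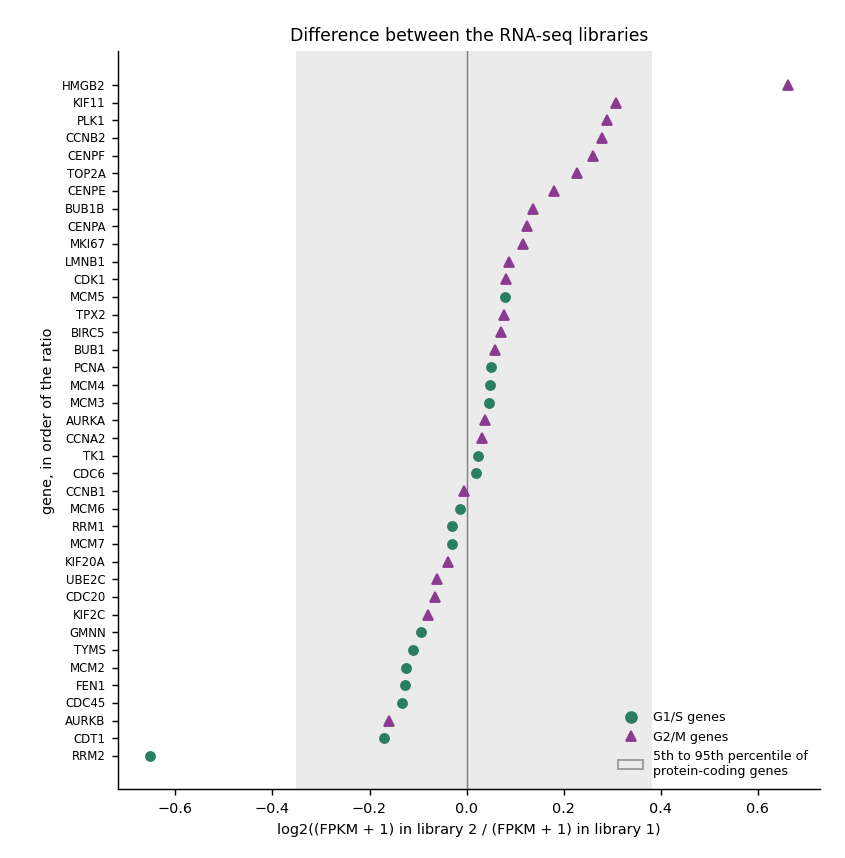
Log2 ratio of FPKM + 1 in library 2 to library 1 for each gene, in order, with G1/S genes as circles, G2/M genes as triangles and a grey band from the 5th to the 95th percentile of protein-coding genes. HMGB2 and RRM2 lie outside the band, and 17 of 23 triangles but 6 of 16 circles lie to the right of 0.

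Reads of a gene were divided among its transcripts by the authors' quantifier, StringTie, so a share of a transcript is an estimate. The leading transcript held a median of 74.2% and 76.6% of a member's FPKM in libraries 1 and 2, against 64.5% and 65% over protein-coding genes at an FPKM of 1 or more in both libraries. In 33 of the 39 genes the same transcript led in both libraries, as in 80% of those protein-coding genes. It was another transcript in AURKA, CENPA, CENPE, MCM3, RRM2 and TK1. The share of FPKM that changed transcript between libraries had a median of 7.03% in the 39 genes and 11.6% over expressed protein-coding genes.

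MCM3 and RRM2 stood apart in this measure. For MCM3, the transcript MCM3-201 had an FPKM of 49.8 in library 1 and 1.86 in library 2, and MCM3-205 had 4.27 and 50.2. The total of the gene differed little between libraries, as given above. For RRM2, RRM2-213 had 22.2 and 0.138, and RRM2-201 had 15.9 and 0.104. RRM2-202 had 8.03 and 14.6, and RRM2-212 had 0.114 and 6.72. In all, 77.1% of RRM2 and 72.2% of MCM3 changed transcript, and RRM2 also differed in total level. TK1 moved less, from TK1-201 (47.6 and 32.9) to TK1-203 (43.9 and 61.2). CENPE-201 was listed at 0 in library 1 and at 1.84 in library 2, while CENPE-202 had 2.27 and 1.79. MCM5 kept its leading transcript, but MCM5-203 had 0.335 and 20.2.

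In AURKA, RRM2 and AURKB, no transcript held 50% of FPKM in either library. The share of expressed protein-coding genes of which this holds was not counted. AURKA was spread over at least 6 transcripts of the protein-coding type, of which AURKA-206 led in library 1 with 31.7% and AURKA-201 in library 2 with 23.9%. AURKB-214 held 34.9% and 26.7% of AURKB, and the retained-intron transcript AURKB-205 held 8.45% and 17%. Transcripts typed as protein-coding held a median of 94.7% and 94.2% of the members' FPKM, against 90% and 89.7% over expressed protein-coding genes. Among the members below these medians in both libraries were BUB1, LMNB1, CENPA and MCM7. BUB1 was led by BUB1-207, a retained-intron transcript, with 68.3% and 63.4%. LMNB1 was led by LMNB1-208, which has no defined coding sequence, with 62.3% and 66.3%, followed by the nonsense-mediated decay transcript LMNB1-203 with 31.8% and 27.7%. CENPA-204, also without a defined coding sequence, held 45.6% and 50.6%, and the retained-intron MCM7-208 held 25.5% and 36.8%. The leading transcript of CCNA2, with 99.1% and 99.2%, has no type in the annotation used, so CCNA2 cannot be placed here.

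**Figure D3:**
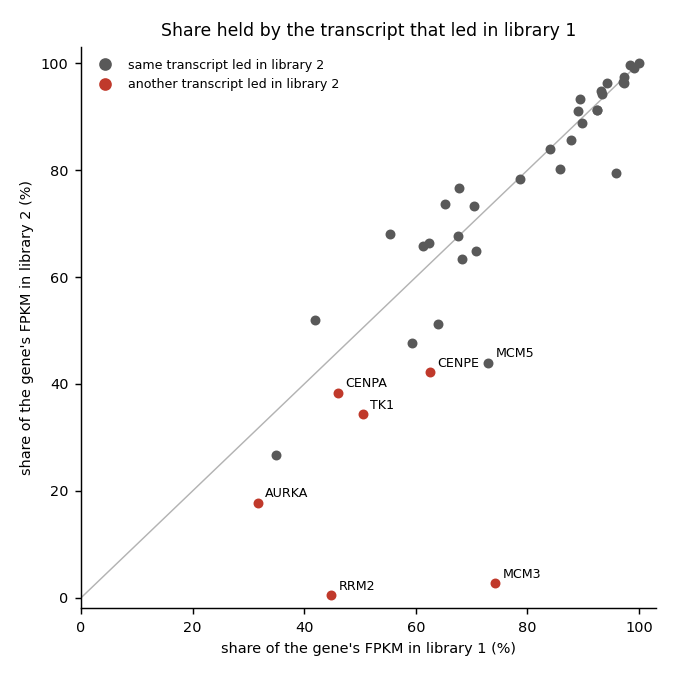
Share of a gene's FPKM held by the transcript that led in library 1, in library 1 (x axis, %) and library 2 (y axis, %), 1 point per gene, red where another transcript led in library 2. MCM3 fell from 74.2% to 2.68% and RRM2 from 44.8% to 0.443%, while most points lie near the line of equal shares.

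At the promoters, all 39 genes had an H3K4me3 and an H3K27ac peak within 1 kb of an annotated transcription start site in both replicates of each mark. Of all protein-coding genes, 53.5% did, and of those at an FPKM of 1 or more in both libraries 83.6% did. No member had an H3K27me3 peak there in either replicate, where 16.2% of protein-coding genes and 4.57% of the expressed ones did. The nearest H3K27me3 peak lay 3385 bp from the principal start of CDK1 in replicate 1 and 4174 bp from that of BUB1 in replicate 2. The median distance over the 39 genes was 60251 and 91248 bp. An active promoter was thus the common state of the list, CENPE included.

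The extent of the marks was measured as the share of the 2001 bp around the principal start that peaks covered. In replicate 1, H3K4me3 covered a median of 98.4% (range 55.3% to 100%) and H3K27ac 98% (59.3% to 100%). In replicate 2 they covered 68.2% (35.9% to 100%) and 64.3% (15.4% to 93.9%). Expressed protein-coding genes with a peak there had medians of 93% and 86.7% in replicate 1, and 70.8% and 50.7% in replicate 2. Members thus had the larger H3K27ac median in both replicates, while their H3K4me3 median was above that of expressed genes in replicate 1 and below it in replicate 2. The widest H3K4me3 peak of replicate 1 was at RRM2, with 6306 bp, and the widest H3K27ac peak at HMGB2, with 5031 bp. When the widest H3K27ac peak of each gene was taken, BUB1B had the narrowest in replicate 1, with 1187 bp, and TK1 in replicate 2, with 309 bp. Across the 39 genes, the rank correlation of mean FPKM with coverage was 0.31 and 0.37 for H3K27ac and 0.14 and 0.14 for H3K4me3 in replicates 1 and 2. It was 0.30 and 0.26, and 0.16 and 0.16, over the expressed genes with a peak. These correlations are across genes that share the same libraries, and they are weak.

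The start site itself was covered by H3K4me3 in all 39 genes in both replicates and by H3K27ac in all 39 in replicate 1. In the narrower H3K27ac peaks of replicate 2, the start was covered in 29 of 39 genes (74.4%), against 57.6% of expressed genes with such a peak. The 10 genes with a peak beside the start and not on it were BIRC5, BUB1, CCNA2, CCNB1, CDC45, CDC6, CENPA, KIF20A, KIF2C and MCM5. In that replicate 30.8% of the members had H3K27ac at 100 bp before the start and 97.4% at 250 bp after it, and expressed genes had 35.4% and 71.9%. At 400 bp before the start, the shares were 71.8% and 46%, so H3K27ac of replicate 2 had a dip just before the start in both sets. Replicate 1 had no such dip. There, 100% of the members and 90% of expressed genes had H3K27ac at 100 bp before the start. At BIRC5, CCNA2, CDC6 and CENPA, the H3K27ac peak of replicate 2 lay wholly downstream within this window, and at CDC45 wholly upstream. No H3K27ac peak of replicate 2 covered any of the downstream 1 kb at CDC45, and 86.7% of the upstream 1 kb was covered.

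**Figure D4:**
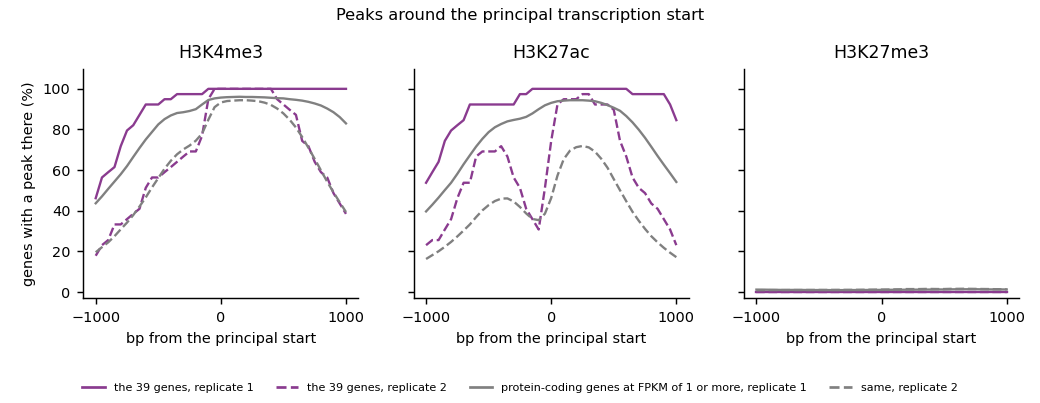
Share of genes (%) with a peak at each position from 1000 bp before to 1000 bp after the principal start, in 50-bp steps, for H3K4me3, H3K27ac and H3K27me3, with the 39 genes in purple, protein-coding genes at an FPKM of 1 or more in both libraries in grey, and replicate 2 dashed. H3K4me3 covered the start of all 39 genes, H3K27ac of replicate 2 fell to 30.8% of them at 100 bp before it, and H3K27me3 stayed at 0.

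Some members had a second gene starting close by, and how many of all protein-coding genes do was not counted. The counts below describe the members only. In 12 of the 39 genes, another gene started within 1 kb on the opposite strand and pointed away, and in 8 of them it was protein-coding. The pairs were TK1 with AFMID at 306 bp, MCM2 with TPRA1 at 144 bp, MCM7 with AP4M1 at 152 bp, MCM4 with PRKDC at 763 bp, AURKA with CSTF1 at 156 bp, FEN1 with TMEM258 at 109 bp, KIF20A with BRD8 at 159 bp and CDC45 with UFD1 at 718 bp. In these 8, H3K4me3 of replicate 2 covered a median of 93.1% of the upstream and 76.8% of the downstream 1 kb. In the other 31, it covered 47.1% and 99%. H3K27ac of replicate 2 covered 81.5% and 63.9% in the 8, and 51.4% and 77% in the 31. In replicate 1, whose wider peaks filled most of the window, the upstream medians were 100% in the 8 and 91.4% in the 31 for H3K4me3, and 100% and 97.9% for H3K27ac. Of the 8 genes, replicate 2 covered more of the upstream than of the downstream side in 6 for H3K4me3 and in 4 for H3K27ac. The larger upstream coverage in the 8 genes was thus seen mainly in replicate 2, and no test was made of it.

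The expression of these partners did not follow one pattern. FEN1 had an FPKM of 36.3 and 33.2 and TMEM258 43.9 and 40.7. PRKDC, the DNA-dependent protein kinase, had 64.2 and 74.2 beside MCM4. MCM7 had 91.4 and 89.4, while AP4M1 had 7.23 and 7.38. The noncoding partners at CDC20, LMNB1 and CCNB1 stayed at an FPKM of 0.234 or below, and TYMSOS, 56 bp from TYMS, had 1.2 and 1.62. In 8 members the gene body was overlapped by a gene of the opposite strand, such as ENOSF1 at TYMS (6.97 and 6.14) and EXOSC9 at CCNA2 (22.1 and 22.9). How common such overlaps are among all protein-coding genes was not assessed. Whether the counting used strand is not given in the sources used here, so reads in such overlaps cannot be assigned with certainty.

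The promoter sequences were searched in a window of 250 bases before and 50 bases from the principal start on, in GRCh37. Words were matched exactly on both strands. The E2F words were TTCCCGC and TTCGCGC, joined by TTGCCGC as well as TTGGCGC. The NF-Y word was CCAAT. The CHR words were TTTGAA as well as TTTAAA. Positions are counted from the start site, the first transcribed base being 1 and the base before it -1. E2F words of different letters can overlap and were counted as separate matches. An E2F word stood in 11 of 16 G1/S promoters (68.8%) and in 3 of 23 G2/M promoters (13%), against 17.1% of all protein-coding promoters. A CHR word stood in 2 of 16 G1/S promoters (12.5%), TK1 and RRM2, and in 21 of 23 G2/M promoters (91.3%), all but CCNA2 and BUB1, against 18.5% of protein-coding promoters. CCAAT was common to both phases, with 11 of 16 (68.8%) and 19 of 23 (82.6%), against 36%. CCAAT and CHR occurred together in 17 of 23 G2/M promoters (73.9%) and 2 of 16 G1/S promoters, against 7.63%. FEN1 and GMNN were the only members with none of these words, where 43.7% of protein-coding promoters had none. G and C made up a median of 65.3% of the window in G1/S genes, 59% in G2/M genes and 63.7% in protein-coding genes, and the E2F words are rich in G and C while the CHR words are not. The part of base composition in these counts was not tested. A match of letters is a description and does not show that a factor binds.

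The promoters of MCM6 and MCM3 are shown for their E2F words, here in capitals. MCM6 had the most matches of the G1/S genes, 4, and MCM3 was the first by alphabet of those with 3. Each run starts 170 bases before the start site and ends with the first 30 transcribed bases, read on the strand of the gene. MCM6 lies at chr2:136633984-136634183 on the minus strand, and MCM3 at chr6:52149511-52149710 on the minus strand, both in GRCh37.
MCM6: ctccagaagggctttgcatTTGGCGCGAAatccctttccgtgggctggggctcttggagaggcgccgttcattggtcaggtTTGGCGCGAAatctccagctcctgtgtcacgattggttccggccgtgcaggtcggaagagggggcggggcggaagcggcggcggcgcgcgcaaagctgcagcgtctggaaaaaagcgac
MCM3: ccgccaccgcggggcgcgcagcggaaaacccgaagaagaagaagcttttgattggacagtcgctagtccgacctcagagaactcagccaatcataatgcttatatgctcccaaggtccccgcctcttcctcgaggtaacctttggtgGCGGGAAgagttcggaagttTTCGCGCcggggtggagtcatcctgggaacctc

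In MCM6 the 4 matches form 2 places, since at each place 2 words on opposite strands overlap, and the places begin at positions -151 and -89. In MCM3, 2 of its 3 matches fall in the printed stretch, 1 of which spans the start site, from position -3 to 4. Over all G1/S promoters, 17 of 24 E2F matches began between 100 bases before and 50 bases after the start, with a median position of -25. The 4 E2F matches in G2/M promoters, in CCNB1, CDK1 and CENPA, all lay further upstream, beginning at positions -231 to -127.

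The promoters of AURKA and AURKB are shown as the first G2/M members in alphabetical order with both CCAAT and CHR words, with these words of either strand in capitals. AURKA is drawn from chr20:54967242-54967441 and AURKB from chr17:8113864-8114063, both on the minus strand of GRCh37, with the same 170 and 30 bases.
AURKA: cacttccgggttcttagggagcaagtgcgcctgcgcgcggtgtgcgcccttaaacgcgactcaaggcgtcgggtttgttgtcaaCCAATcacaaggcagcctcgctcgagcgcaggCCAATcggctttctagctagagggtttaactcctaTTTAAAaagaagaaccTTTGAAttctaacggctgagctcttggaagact
AURKB: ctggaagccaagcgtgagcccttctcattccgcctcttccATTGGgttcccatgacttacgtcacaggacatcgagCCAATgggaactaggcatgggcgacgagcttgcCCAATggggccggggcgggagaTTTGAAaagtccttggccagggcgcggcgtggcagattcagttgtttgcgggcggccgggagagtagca

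These promoters share an arrangement, a pair of CCAAT words followed by a CHR word near the start. The arrangement was noticed in the sequences and then counted, so the limits below were chosen after the positions were seen. A pair of CCAAT words whose starts lay 31 to 33 bases apart stood in 6 of 23 G2/M promoters (26.1%), in 1 of 16 G1/S promoters (TK1) and in 1.36% of protein-coding promoters. A CHR word that began 20 to 40 bases after the start of a CCAAT word stood in 11 of 23 G2/M promoters (47.8%), in 1 of 16 G1/S promoters (RRM2) and in 0.993% of protein-coding promoters. The 11 were AURKA, AURKB, CCNB1, CCNB2, CDC20, CDK1, CENPF, KIF11, KIF20A, TPX2 and UBE2C. Both arrangements occurred together in AURKA, AURKB, CCNB1, CCNB2, CDK1 and UBE2C, and the share of protein-coding promoters with both was not counted. TK1 and RRM2 each narrowly missed the other arrangement. In TK1 the CCAAT words began at positions -77 and -46 and a CHR word at -27. In RRM2 the CCAAT words began at positions -123, -93 and -66 and the CHR word at -30. Since the counts above were fitted to the members, they describe them and test nothing.

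The last 120 bases before the start of CCNB1, CCNB2 and CDK1 are shown to make the spacing visible, with CCAAT and CHR words of either strand in capitals. The GRCh37 positions are chr5:68462857-68462976 for CCNB1, chr15:59397225-59397344 for CCNB2 and chr10:62538116-62538235 for CDK1, all on the plus strand.
CCNB1: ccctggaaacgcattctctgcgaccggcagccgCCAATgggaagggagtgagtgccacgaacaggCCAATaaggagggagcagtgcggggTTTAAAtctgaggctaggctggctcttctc
CCNB2: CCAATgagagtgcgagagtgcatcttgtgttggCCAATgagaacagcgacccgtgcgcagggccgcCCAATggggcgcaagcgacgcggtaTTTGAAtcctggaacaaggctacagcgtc
CDK1: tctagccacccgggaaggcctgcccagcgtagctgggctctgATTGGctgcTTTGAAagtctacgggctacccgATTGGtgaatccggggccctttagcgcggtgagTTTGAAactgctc

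In CCNB1 the CCAAT words began at positions -87 and -55 and the CHR word at position -30. In CDK1 the CCAAT words began at positions -78 and -46 and the CHR words at positions -69 and -13 within the printed stretch. Over the G2/M promoters, the 35 CHR matches began at a median position of -41 and the 44 CCAAT matches at a median of -86.5. The gene with the lowest level, CENPE, had 3 CHR words and no CCAAT, and the highest, PCNA, had 2 CCAAT words and neither an E2F nor a CHR word.

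**Figure D5:**
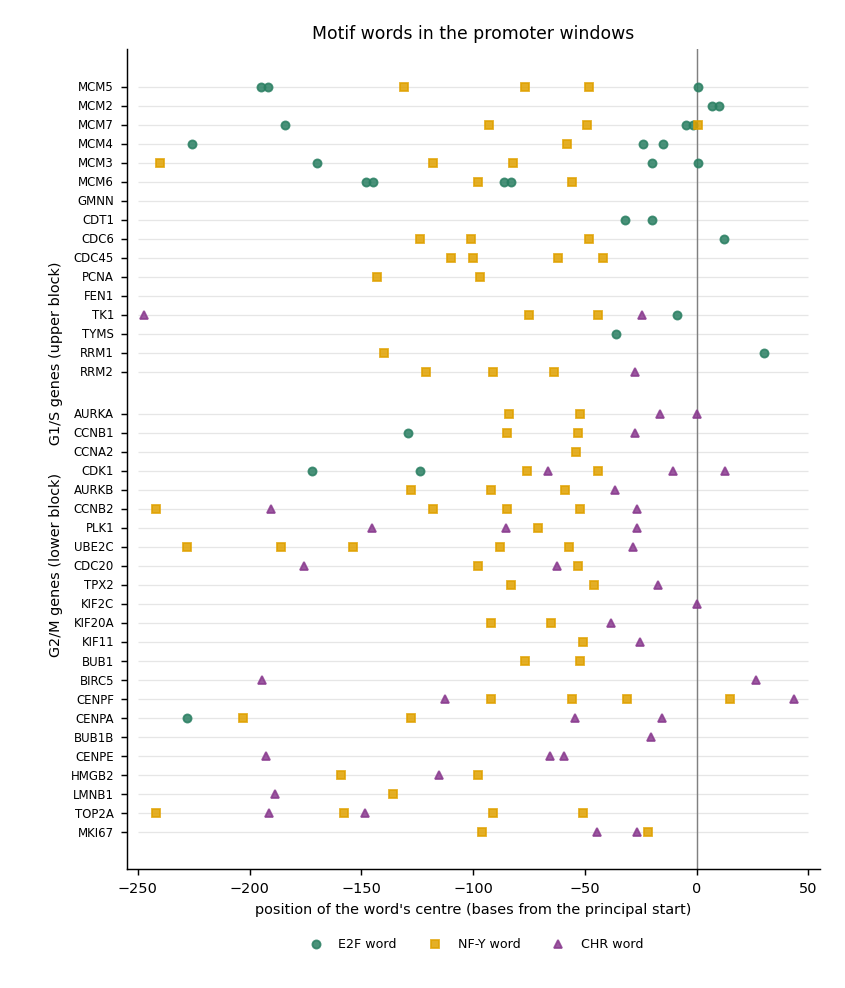
Position of each motif word in the promoter window of each gene, in bases from the principal start (0, vertical line), with G1/S genes in the upper block and G2/M genes in the lower. E2F words (circles) gather near the start in 11 of 16 G1/S genes, and CHR words (triangles) occur in 21 of 23 G2/M genes and in 2 of 16 G1/S genes.

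A further 96 cell cycle genes, listed by textbook role, were all found and all reached an FPKM of 1 in both libraries, against the 58.8% of protein-coding genes. An FPKM of 10 was reached in both libraries by 73 of the 96, where 30.2% of protein-coding genes did. Their median FPKM was 16.9 (16.2 and 17.1 in the libraries), below the 44.6 of the 39 genes. STMN1, which encodes a microtubule-destabilising protein, was highest, with 214 and 154, followed by CKS2, a CDK-binding subunit, with 151 and 141. MYBL2, a transcription factor that works on G2/M promoters, had 113 and 111. The lowest were the kinesin KIF15, with 2.74 and 3.36, and the atypical and activator E2F genes E2F8 (2.45 and 2.2) and E2F2 (2 and 1.7). E2F1 had 36.3 and 35.5, and FOXM1, a factor of late cell cycle genes, had 28.1 and 25.6. Between libraries, 57 of the 96 were higher in library 2 and 39 lower, with a median log2 ratio of 0.030. Of protein-coding genes whose mean FPKM was 1 or more, 51.8% were higher, with a median of 0.006.

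H3K4me3 and H3K27ac stood at the start in both replicates in 90 of the 96 genes, against 39 of 39 members, 53.5% of protein-coding genes and 83.6% of the expressed ones. The other 6, DLGAP5, E2F2, E2F8, MCM10, SPC25 and TTK, lacked H3K27ac in replicate 2 only. CCND1, which encodes cyclin D1, SPC25 and E2F2 had an H3K27me3 peak at a start in at least 1 replicate, 3 of the 96, where 16.2% of protein-coding genes and 4.57% of the expressed ones did. E2F2 thus had H3K27me3 in replicate 2, H3K27ac in replicate 1 and H3K4me3 in both.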

How the data were processed

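HK2 cells of 1 condition were measured by RNA-seq (2 libraries) and ChIP-seq (2 replicates of 3 marks). Input DNA and HiChIP were not analysed here. The authors deposited FPKM and TPM per transcript, made with HISAT2 and StringTie. Mapping was stated as hg19, but the deposited FPKM values carry GENCODE identifiers and coordinates of GRCh38, and those coordinates were left aside. For ChIP-seq, the authors used Bowtie2 on hg19 and ran MACS2 on each replicate. The deposited lists hold positions only, so the number of reads behind a single peak is unknown. The paper lists more aligned read pairs for its replicate 1 of each mark. It also lists a larger fraction of reads in peaks there for H3K27ac and H3K4me3. The replicate without a number in its label was taken as replicate 1.

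FPKM was summed per gene, and genes were joined by Ensembl identifier to GENCODE version 44 mapped to GRCh37, which gave types, start sites and the principal start (the canonical transcript). Peaks were matched by at least 1 bp within 1 kb of any start. Ratios used a pseudocount of 1, which compresses low values. With 2 libraries of 1 condition no test was made. All 39 genes are named, and details were given for the extremes of each role, of the library ratio and of transcript shares, for divergent promoters and for the sequences described. The genes and lists were chosen with earlier results of these data known. The sequence of 1 further promoter is not reported here. Functions were tested on simulated data. Python 3.11.15, pandas 2.3.3, numpy 2.4.6, scipy 1.17.1, pysam 0.24.0, samtools 1.23.1 and matplotlib 3.10.9 were used. Alternatives covered the unit, pseudocount, transcripts, thresholds, windows, replicates and motif letters.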

Additional observations from a re-analysis of the deposited data

How the results depend on the processing

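Of 60 alternative values, 53 stayed within a set margin. The margin was 1.5 times for a count and otherwise the SD between replicates. For the library ratio, it was the SD of the ratio across the 39 genes, 0.196 against a median ratio of 0.039. Some values could not leave their margin. For coverage and transcript shares, the value is a mean over 2 replicates, and leaving 1 out moves it by less than their SD. Most of the mark counts below could not change either. The 53 thus do not measure how robust the results are. Only the log2 difference from the protein-coding median, the G2/M minus G1/S difference and the library ratio could change direction, and none did. The 39 of 39 genes with both active marks and the 0 of 39 with H3K27me3 held with windows of 500 bp and 2 kb and with the principal start alone. They also held with either or both replicates and without each replicate (39 and 0 in each case). Most of these alternatives could not differ. For the active marks only the 500 bp window and the principal start could lower the count. For H3K27me3 only the 2 kb window could raise it. The median level of 44.6 FPKM became 123 in TPM, a unit of another scale, and 34.7 FPKM when only transcripts typed as protein-coding were summed, and ran from 44.1 to 44.9 with 1 library left out. Its log2 difference from the protein-coding median of 3.40 became 3.71 with a pseudocount of 0.1 and 2.28 against genes whose mean FPKM was 0.1 or more, since fewer low genes then enter. The median coverage over both replicates, 83.3% for H3K4me3 and 81.1% for H3K27ac, became 55.1% and 52.3% over 2 kb on each side, a window longer than the median peak at these starts. The G2/M minus G1/S difference of -0.71 ran from -0.74 to -0.63 with 1 library left out. The cause was not tested. With 8-letter E2F words, 9 G1/S and 2 G2/M promoters matched, and the share over all protein-coding promoters was not counted. In the RefSeq promoter table, an alternative chosen after seeing the data, sequences were found for 14 G1/S and 18 G2/M genes. There, E2F words stood in 9 and 3, CCAAT in 8 and 14, and CHR words in 3 and 15. Over the 15234 protein-coding genes found there, the shares were 17.4% for E2F words, 36.6% for CCAAT and 19.4% for CHR words. No paired analysis was possible because the samples form 1 condition and no result comes from a test. A spread from 2 libraries is poorly known, and peak positions without heights cannot show differences in signal.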
